A study of Mus musculus with 12 samples.

Results

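Expression of 12393 genes was compared between livers of 3 mice without hepatocyte retinoid X receptor alpha (RXRα) and livers of 3 wild type mice, all on the normal diet. These were 6 of the 12 arrays of the series. The other 6 came from mice of the same genotypes whose diet held all-trans retinoic acid (RA), 150 mg/kg, for 7 days. The samples were chosen by their titles, untreated RXRα-KO (KO) and untreated wild type (WT), which number them as biological replicates 1 to 3. Every gene with a probe set of its own was included, each read by its brightest probe set (highest mean of the 12 arrays). All mice were male and on a C57BL/6 background, and the methods give an age of 12 weeks beside the wild type mice. The KO mice carried floxed alleles of the RXRα gene and Cre recombinase under the albumin promoter. The deletion is therefore aimed at hepatocytes, and the receptor in the other cells of the liver was not examined here. The exon removed is the one for the DNA-binding domain, and per the methods a truncated protein with the ligand-binding domain is still made.

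RXRα is a nuclear receptor that binds DNA mostly as a heterodimer. Its partners include the retinoic acid receptors, the peroxisome proliferator-activated receptors (PPARs), the liver X receptors, the farnesoid X receptor, and the xenobiotic receptors PXR and CAR. Through them it takes part in the control of fatty acid oxidation, bile acid and cholesterol metabolism and drug clearance in the liver. The comparison addresses which liver transcripts depend on hepatocyte RXRα when no RA is added to the diet.

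Values are deposited log2 intensities (RMA), in which a difference of 1 is a 2-fold change. The arrays had medians of 6.26 to 6.35 and lower quartiles of 4.87 to 5.02, below which the size of a change is uncertain. KO 1 stood apart, with 529 probe sets more than 1 log2 unit from the mean of the other arrays of its group. The same count was 318 on KO 2, 89 on KO 3 and 51 to 110 on the WT arrays. The 3′ Actb control was low on KO 1 (9.12) and on WT_RA 3 (9.40), against 12.1 to 12.9 elsewhere, so that counts are also given without KO 1 and WT_RA 3. Hepatocyte markers were present on all arrays, with summed intensities of 142000 to 159000 in KO and 158000 to 169000 in WT, and 0 of 17 were called. The targeted gene, Rxra, read 10.11, 10.66 and 10.84 on the KO arrays, against 10.82, 10.51 and 10.37 on the WT arrays. No source used here says where its probe sets lie relative to the deleted exon, so Rxra does not check the deletion.

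The 2 groups differed in 163 of 12393 genes (1.32%) by limma at an adjusted p under 0.05, of which 60 were higher in KO (0.484%) and 103 lower (0.831%). Changes ranged over 0.41 to 3.77 among the genes that rose and over -3.14 to -0.39 among those that fell, and 22 rose and 32 fell by more than 1. The 3 KO and 3 WT arrays did not overlap in any of these 163 genes, which also held for 20.1% of all genes. The median change of all genes was 0.0238, and 54.9% of the changes were positive. The count depended on single arrays. It was 66 without KO 2, 86 without KO 3, 71 without WT 1, 51 without WT 2 and 102 without WT 3. Without KO 1 it was 217, with 141 higher and 76 lower, and without both KO 1 and WT_RA 3 it was 266, with 165 higher and 101 lower, of which 122 were among the 163. A total of 40 genes, 15 higher and 25 lower, were called with each of the 6 arrays left out in turn, and the largest changes below were taken from these.

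**Figure D1:**
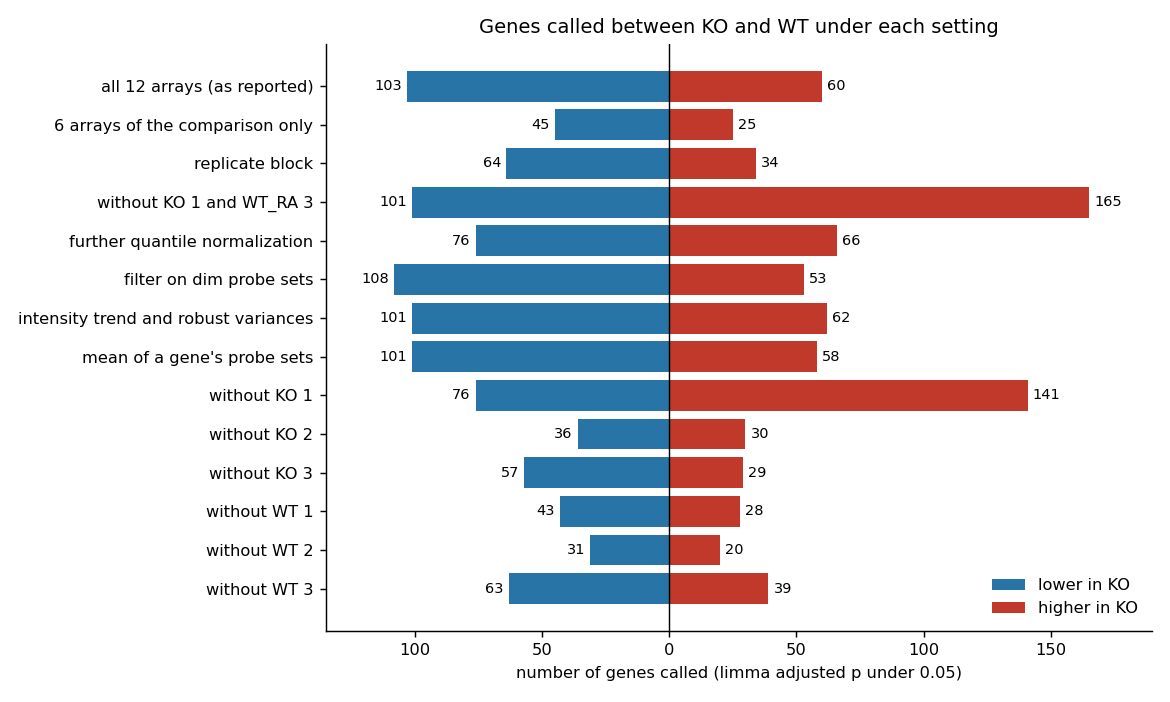
Number of genes called lower (bars to the left) and higher (bars to the right) in KO than in WT under each setting, in genes at a limma adjusted p under 0.05. All 12 arrays gave 60 higher and 103 lower genes, and leaving out KO 1 gave 141 higher and 76 lower genes.

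The largest fall was that of Igfbp2, whose product binds insulin-like growth factors in the circulation. It read 8.27, 8.39 and 8.06 on the KO arrays, against 11.94, 10.97 and 11.24 on the WT arrays. This was a fall of 3.14 ± 0.29 on the log2 scale (SE, n = 3 per group, limma adjusted p = 0.000855), or 8.84-fold. Elovl3, which elongates very long chain fatty acids, read 9.60, 8.20 and 8.88 in KO, against 11.76, 11.59 and 11.82 in WT. KO 1 was the highest KO array for this gene and still lay more than 1 unit below every WT array (difference -2.83 ± 0.33, adjusted p = 0.00197). Acaa1b, a thiolase of peroxisomal β-oxidation, read 9.85, 8.54 and 9.45 in KO, against 11.60, 12.04 and 11.89 in WT (-2.56 ± 0.34, adjusted p = 0.00337). Decr2 encodes the peroxisomal reductase needed to oxidize unsaturated fatty acids. It read 7.41, 7.12 and 7.95 in KO, against 9.34, 10.05 and 10 in WT, a 4.93-fold fall (adjusted p = 0.00336). The arachidonic acid epoxygenase gene Cyp2c29 read 10.69, 10.25 and 11.10 in KO, against 12.76, 12.91 and 12.63 in WT (-2.09 ± 0.20, adjusted p = 0.000855). For each of these 5 genes the highest KO array lay below the lowest WT array, as for every called gene that fell. Perp, a membrane protein gene induced by p53, fell by 2.01. Cyp2c37, a related epoxygenase gene, had a change of -1.98, with a KO mean below the lower quartiles of the arrays. The transcriptional regulator gene Hes6 (-1.41), the calpain gene Capn10 (-1.34), the flavin monooxygenase gene Fmo5 (-1.33), the membrane ATPase gene Atp9a (-1.27) and the aldehyde oxidase gene Aox3 (-1.22) completed the 12 largest falls, with adjusted p up to 0.00444. Atp9a had other probe sets at 0.04 and -1.29, and Capn10 had another at -0.58.

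Among the genes that rose, Scd2, a stearoyl-CoA desaturase, read 7.12, 8.58 and 8.67 in KO, against 4.94, 4.78 and 4.85 in WT. Its rise of 3.27 ± 0.45 (SE, n = 3 per group, limma adjusted p = 0.00429) had WT values near the floor and is therefore uncertain in size. Its other probe sets differed by 1.57 and 0.51. The carboxylesterase gene Ces2a read 10.84, 11.66 and 11.91 in KO, against 8.19, 8.29 and 8.45 in WT, an 8.93-fold rise (3.16 ± 0.40, adjusted p = 0.00336). KO 1 was the lowest KO array for both Scd2 and Ces2a. The water channel gene Aqp4 read 8.48, 8.58 and 8.20 in KO, against 5.89, 5.48 and 5.55 in WT, which is 6.87-fold (adjusted p = 0.000855), while a second, dimmer probe set of Aqp4 differed by 0.96. Asns, the asparagine synthetase, read 9.56, 8.84 and 8.85 in KO, against 6.28, 7.58 and 7.08 in WT (2.10 ± 0.32, adjusted p = 0.00815). Igfbp1, a second secreted protein that binds insulin-like growth factors, read 11.67, 11.43 and 11.57 in KO, against 10.23, 8.85 and 9.41 in WT (2.06 ± 0.33, adjusted p = 0.012). The WT arrays were the more spread for both Asns and Igfbp1. Apoa4, an apolipoprotein of triglyceride-rich particles, read 12.84, 11.81 and 12.40 in KO, against 10.68, 10.38 and 10.34 in WT, a 3.68-fold rise (adjusted p = 0.00114). Smaller rises were those of the tubulin gene Tuba8 (1.45), the ubiquitin ligase adaptor gene Klhl13 (1.45), the cilium gene Evc (1.23), the endocytic receptor gene Lrp2 (1.20, below the lower quartile in WT), the leukocyte surface gene Cd83 (1.05) and Atpif1 (0.86), the inhibitor of mitochondrial ATP synthase. Other probe sets of Evc and Atpif1 differed by only 0.03 and 0.07.

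**Figure D2:**
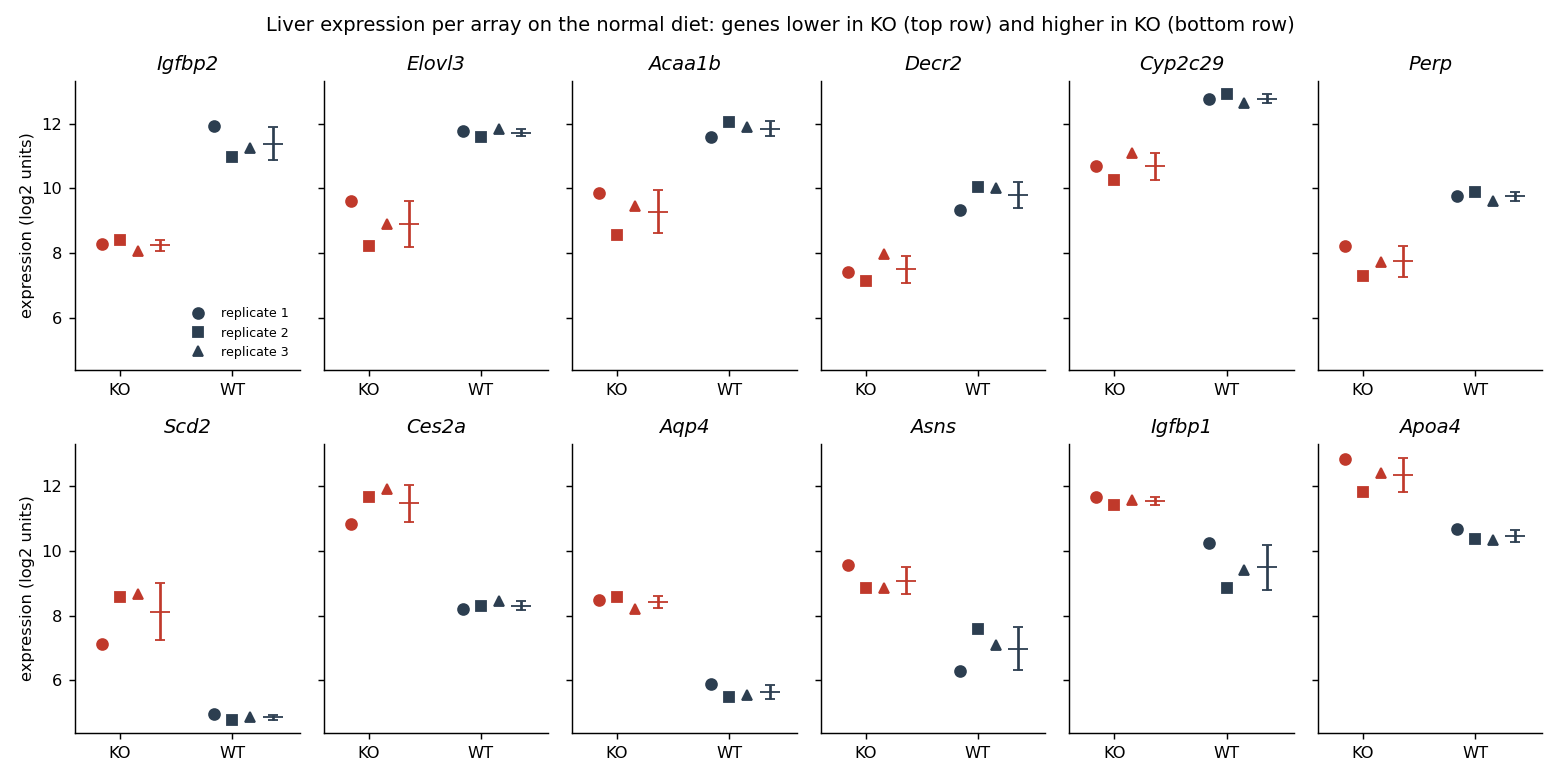
Deposited log2 expression of 12 genes on each array of the normal diet, KO left of WT in each panel, with the mean and SD of the 3 arrays beside the points. The top row shows genes that fell in KO, such as Igfbp2 (8.06 to 8.39 in KO, 10.97 to 11.94 in WT), and the bottom row genes that rose, such as Aqp4 (8.20 to 8.58 in KO, 5.48 to 5.89 in WT).

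Sult1e1, the estrogen sulfotransferase, had the largest change of all called genes but was not called without WT 1 (adjusted p = 0.0531). It read 8.64, 7.43 and 8.32 in KO, against 4.23, 4.66 and 4.19 in WT, all WT arrays lying below the lower quartile. The difference was 3.77 ± 0.61 (SE, n = 3 per group, limma adjusted p = 0.0135). Hsd17b11, a dehydrogenase of lipid droplets, read 10.41, 10.25 and 10.34 in KO, against 11.41, 11.41 and 11.38 in WT (-1.07 ± 0.12, adjusted p = 0.00121), and was called with each array left out. Its other probe set differed by -3.44, in the same direction.

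Nuclear receptor heterodimers recognize repeats of a 6-base half-site, AGGTCA. RefSeq promoter windows (300 bases each, 250 before to 50 after a gene's start, build GRCm38.p6) were searched on both strands. They were found for 45 of the 60 genes that rose (65 windows) and 86 of the 103 that fell (110 windows). The half-site was present in 21.5% of the windows of genes that rose and in 20.9% of those that fell, against 16.3% of all 32851 windows and 13.6% of the windows of the measured genes. Shares are of windows and not of genes, so a gene with several windows can count the same match more than once. Direct repeats of AGGNCA spaced by 1, 4 or 5 bases, and the inverted repeat spaced by 1 base, were in 0 windows of either group. In all windows their shares were 0.381%, 0.253%, 0.216% and 0.0883%. In the windows of the measured genes they were 0.294%, 0.167%, 0.215% and 0.0796%. At such shares, 65 and 110 windows are too few for a count of 0 to set either group apart from other genes. Repeats that hold a T at the open base contain the half-site and count for both. A match is a string of letters and not a shown binding site, and these windows leave out enhancers. The interferon element (GAAA, 2 bases, GAAA) was in 7.69% of the windows of genes that rose and in 4.55% of those that fell. Its share was 3.44% of all windows and 3.14% of those of the measured genes. The windows of 3 genes with a half-site and large changes are given as examples. Gbp2, an interferon-induced gene whose window holds the interferon element, is added. Matches are in capitals on either strand.
Ces2a, chr8:104733753-104734052, plus strand, rose by 3.16, half-site 226 bases before the start: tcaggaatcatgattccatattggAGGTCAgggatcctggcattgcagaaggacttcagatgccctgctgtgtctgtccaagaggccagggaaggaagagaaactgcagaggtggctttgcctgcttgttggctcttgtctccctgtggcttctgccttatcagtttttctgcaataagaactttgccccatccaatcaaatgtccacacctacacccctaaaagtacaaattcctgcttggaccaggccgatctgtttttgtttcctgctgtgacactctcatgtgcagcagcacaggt
Sult1e1, chr5:87591562-87591861, minus strand, rose by 3.77, half-site 113 bases before the start: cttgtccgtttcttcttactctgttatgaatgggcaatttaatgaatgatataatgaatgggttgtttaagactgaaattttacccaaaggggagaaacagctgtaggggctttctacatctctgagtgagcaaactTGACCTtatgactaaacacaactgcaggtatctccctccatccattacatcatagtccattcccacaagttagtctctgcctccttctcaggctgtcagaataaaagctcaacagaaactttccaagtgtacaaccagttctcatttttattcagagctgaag
Cyp2c29, chr19:39286835-39287134, plus strand, changed by -2.09, half-site 154 bases before the start: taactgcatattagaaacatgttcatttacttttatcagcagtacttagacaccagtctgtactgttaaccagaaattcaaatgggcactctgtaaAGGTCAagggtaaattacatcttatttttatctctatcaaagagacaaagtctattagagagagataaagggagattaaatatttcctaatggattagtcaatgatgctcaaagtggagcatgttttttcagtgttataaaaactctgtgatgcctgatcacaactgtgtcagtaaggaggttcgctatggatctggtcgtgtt
Gbp2, chr3:142620413-142620712, plus strand, rose by 1.96, interferon element 59 bases before the start: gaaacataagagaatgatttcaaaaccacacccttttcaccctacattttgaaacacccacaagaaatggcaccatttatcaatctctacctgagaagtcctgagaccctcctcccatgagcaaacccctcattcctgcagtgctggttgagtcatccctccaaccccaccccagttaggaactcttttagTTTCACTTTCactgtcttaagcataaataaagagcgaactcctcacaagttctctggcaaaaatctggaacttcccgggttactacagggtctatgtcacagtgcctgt

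The genes were then grouped by pathway. The 35 pathway and 11 cell marker lists held 860 measured genes, of which 52 (6.05%) were called, so that 111 of the 163 called genes lay outside them. The lists were chosen with earlier results of these data known, so their share of calls is description only. The called members of each list stand beside 1.32% of all genes called and a median change of 0.0238. Counts of members at an unadjusted p under 0.05 (limma) stand beside 2017 of all 12393 genes.

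**Figure D3:**
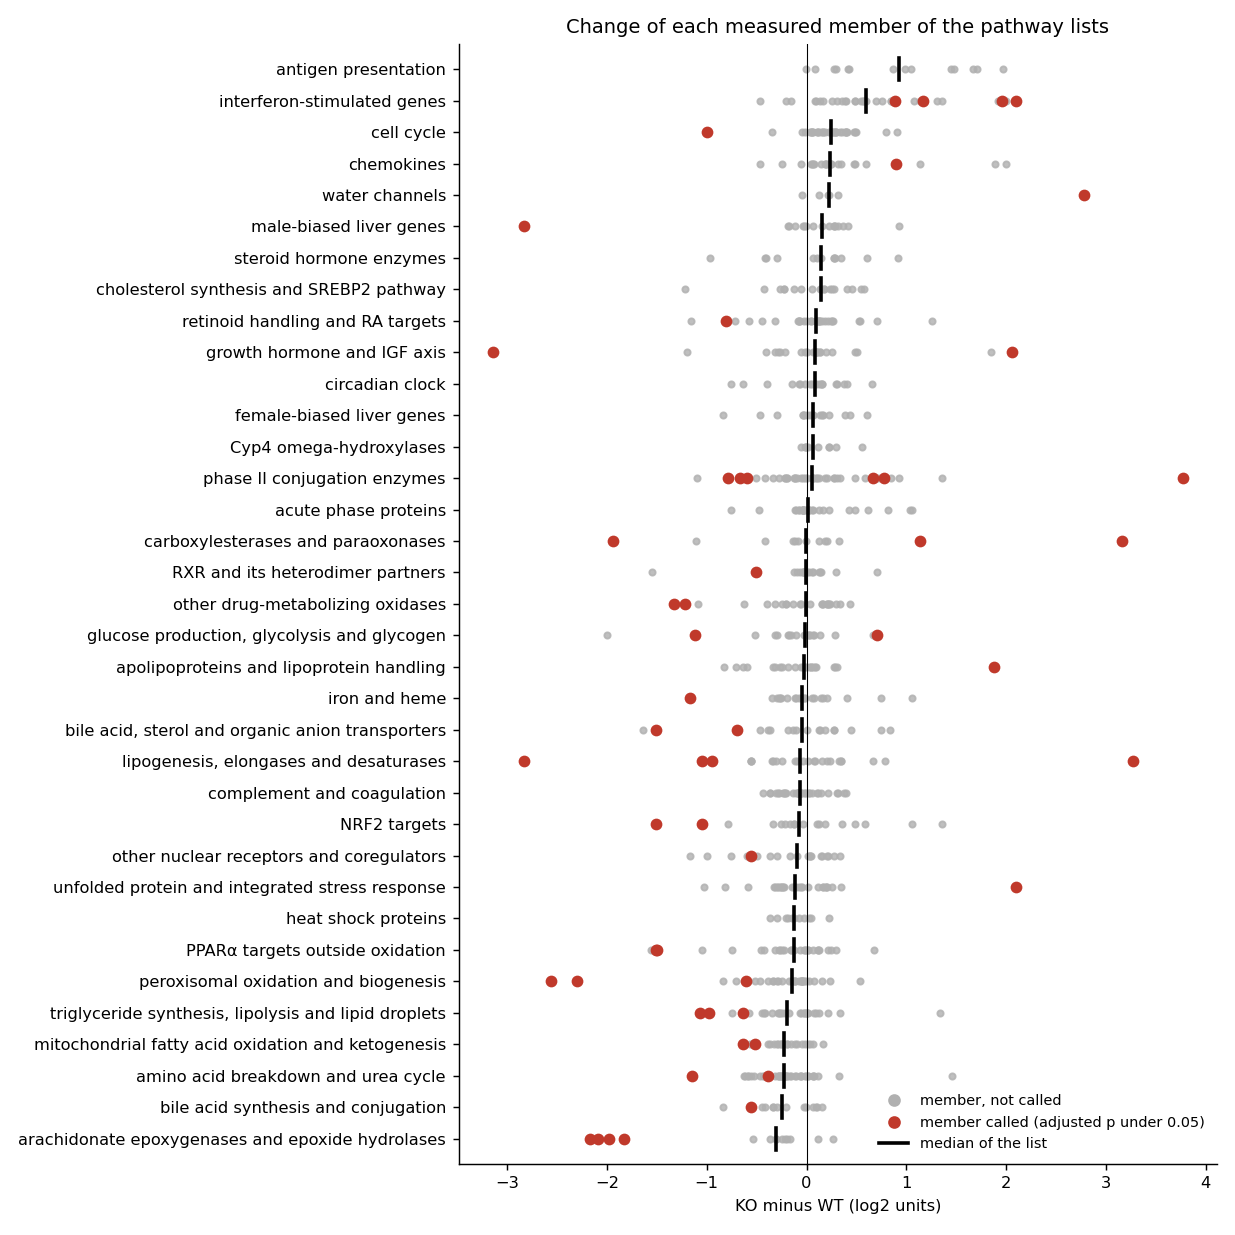
Change between KO and WT (log2 units) of each measured member of the 35 pathway lists, with called members in red, others in grey and the median of each list as a black bar. Antigen presentation and interferon-stimulated genes had the highest medians (0.93 and 0.60), and epoxygenases with epoxide hydrolases the lowest (-0.31).

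Of the RXR genes and their heterodimer partners, 18 were measured and 1 was called. Pparg, the PPAR of fat storage, fell, with 6.06, 5.94 and 5.89 in KO, against 6.32, 6.63 and 6.48 in WT (-0.51 ± 0.09, SE, n = 3 per group, limma adjusted p = 0.0239). Its call was absent without KO 2, KO 3, WT 2 or WT 3 (adjusted p up to 0.0932). Differences were -0.13 for Rxrb, 0.02 for Rxrg, -0.04 for the liver X receptor gene Nr1h3, 0.06 for the farnesoid X receptor gene Nr1h4, -0.04 for the PXR gene Nr1i2, -0.07 for the CAR gene Nr1i3 and -0.03 for the retinoic acid receptor gene Rara, with adjusted p of 0.579 or higher. Under alternative settings the sign of each of these except Rxrb turned, as did that of Rxra. A second probe set of Nr1i2 differed by -0.37. Ppara, the receptor that drives fatty acid oxidation in the liver, read 6.35, 9.18 and 9.44 in KO, against 9.52, 10.31 and 9.80 in WT. The low value was that of KO 1, and the difference of -1.55 ± 0.98 was not called (adjusted p = 0.44). Without KO 1 the difference was -0.57. Ppara was also low on WT_RA 3, at 5.92, against 9.91 and 9.88 on WT_RA 1 and WT_RA 2. Of 21 other nuclear receptors and coregulators, Nr5a2 was called. This receptor, which takes part in bile acid synthesis, read 8.67, 8.68 and 8.81 in KO, against 9.47, 9.23 and 9.14 in WT (-0.56 ± 0.10, adjusted p = 0.018, up to 0.0694 without KO 2 or WT 2). Nr0b2, the small heterodimer partner induced by the farnesoid X receptor, read 8.94, 8.60 and 8.20 in KO, against 9.86, 9.85 and 9.57 in WT (-1.17 ± 0.36, adjusted p = 0.151). The coactivator gene Ppargc1a differed by -1 (adjusted p = 0.12) with no overlap between the groups, and the hepatocyte regulator Hnf4a by -0.17 (adjusted p = 0.506), with its 3 other probe sets at -0.61 to -0.24.

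Of 30 genes of retinoid handling and RA response, 1 was called, the carotenoid cleavage enzyme gene Bco2, which fell by 0.81 ± 0.17 (SE, n = 3 per group, limma adjusted p = 0.0423). The Bco2 call was absent without KO 1, KO 2, KO 3, WT 2 or WT 3 (adjusted p up to 0.143). Cyp26a1, the hydroxylase that degrades RA, read 8.43, 8.43 and 8.69 in KO, against 7.49, 8.36 and 8.11 in WT, a difference of 0.53 that was not called (adjusted p = 0.18). Neither the retinaldehyde dehydrogenase relative Aldh1a7 (1.26 ± 0.28, adjusted p = 0.0516) nor the receptor gene Rarb (0.71 ± 0.17, adjusted p = 0.0756, below the lower quartile in WT) passed, although their groups did not overlap.

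Of the genes of fatty acid oxidation, 5 fell and 0 rose, and most of the others had small negative changes. Of 33 peroxisomal genes 3 fell and 0 rose, with a median of -0.15 and a negative change in 28. Beside Acaa1b and Decr2, described above, the very long chain acyl-CoA synthetase gene Slc27a2 fell. It read 12.15, 12.07 and 12.21 in KO, against 12.94, 12.75 and 12.58 in WT (-0.61 ± 0.11, SE, n = 3 per group, limma adjusted p = 0.0267). Acaa1a, the close relative of Acaa1b that was singled out after its value was seen, differed by -0.13 (adjusted p = 0.604). Eci2, an isomerase of the same pathway, differed by -0.84 and was not called (adjusted p = 0.0556). Ehhadh, the bifunctional enzyme, read 10.98, 10.89 and 11.12 in KO, against 10.38, 10.67 and 10.31 in WT, a difference of 0.54 in the other direction (adjusted p = 0.172). Of 22 mitochondrial genes 2 fell, with a median of -0.23. The acylcarnitine carrier gene Slc25a20 read 9.59, 9.31 and 9.52 in KO, against 10.38, 9.98 and 9.98 in WT (adjusted p = 0.0348). The dehydrogenase gene Acadvl read 10.76, 10.74 and 10.85 in KO, against 11.44, 11.24 and 11.22 in WT (adjusted p = 0.0273). The rate-limiting carnitine palmitoyltransferase gene Cpt1a differed by -0.16 (adjusted p = 0.681). The median of the mitochondrial list lay between -0.30 (without KO 3) and -0.19 (without KO 1), while the peroxisomal median lay between -0.22 (KO 3 left out) and -0.13 (KO 2 left out). The calls of Slc27a2 and Acadvl were absent without KO 2, KO 3, WT 1 or WT 2. The Slc25a20 call was absent without those arrays or WT 3. Adjusted p were then up to 0.0881 for Slc27a2, 0.0916 for Acadvl and 0.115 for Slc25a20.

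Outside oxidation, 2 of 29 PPARα target genes fell and 0 rose (median -0.13, and -0.06 without KO 1). Aldh3a2, the fatty aldehyde dehydrogenase, read 8.04, 7.73 and 8.17 in KO, against 9.51, 9.79 and 9.19 in WT (-1.51 ± 0.28, SE, n = 3 per group, limma adjusted p = 0.0273). Vnn1, a pantetheinase that responds strongly to PPARα, read 6.43, 5.91 and 6.52 in KO, against 8.40, 7.62 and 7.33 in WT (-1.5 ± 0.29, adjusted p = 0.0333). Both calls were absent without KO 2, KO 3, WT 1 or WT 2 (adjusted p up to 0.101). Angptl4, an inhibitor of lipoprotein lipase, read 9.11, 8.18 and 8.98 in KO, against 10.76, 9.92 and 10.26 in WT, but was not called (-1.56 ± 0.41, adjusted p = 0.0946). Other well-known targets were not called, among them Cyp4a14 (0.11, adjusted p = 0.968), Fgf21 (0.01 ± 0.10) and Pdk4 (0.68 ± 0.26, adjusted p = 0.236). Pdk4 lay below the lower quartiles in WT and Cyp4a14 near them in both groups (means of 5.02 in KO and 4.91 in WT), where changes are poorly measured. None of the 10 fatty acid omega-hydroxylase genes of the Cyp4 family was called, and 1 had an unadjusted p under 0.05. Their changes ranged over -0.06 to 0.56.

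Among 14 arachidonate epoxygenases and epoxide hydrolases, 4 fell and 0 rose, and 12 had a negative change (median -0.31). All 4 were of the Cyp2c family, which are close in sequence. Cyp2c50 read 9.90, 7.94 and 9.35 in KO, against 11.15, 11.35 and 11.20 in WT (-2.17 ± 0.39, SE, n = 3 per group, limma adjusted p = 0.023). Cyp2c54 read 10.31, 8.44 and 10.07 in KO, against 11.24, 11.63 and 11.43 in WT (-1.83 ± 0.36, adjusted p = 0.0338). In both KO 2 was the lowest array by over 1 unit, as it also was for Cyp2c29 and Cyp2c37 by less. The calls of Cyp2c50 and Cyp2c54 were absent without any 1 of the WT arrays (adjusted p up to 0.0875 and 0.12), and those of Cyp2c29 and Cyp2c37 held without each array. The epoxide hydrolase gene Ephx2 differed by -0.31 (adjusted p = 0.186).

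Drug and steroid clearance genes moved in both directions. Of 24 other oxidases, Fmo5 and Aox3 fell. Cyp2b10, the best-known target of CAR, read 6.73, 5.94 and 6.05 in KO, against 7.02, 7.47 and 7.48 in WT, and was not called (-1.09 ± 0.25, SE, n = 3 per group, limma adjusted p = 0.0613). It was called without KO 1 and WT_RA 3 (adjusted p = 0.00149). The main Cyp3a enzyme gene, Cyp3a11, differed by 0.34 ± 0.11 and was called in neither fit. Of 41 conjugation enzymes 3 rose and 3 fell, with a median of 0.05 whose sign turned without KO 1 (-0.02) or WT 3. The glutathione transferase genes Gstm7 (0.78) and Gstt1 (0.67) rose beside Sult1e1, whereas Gstk1 (-0.60), another transferase gene, and the glucuronosyltransferase genes Ugt2b1 (-0.79) and Ugt2b34 (-0.67) fell. Gstk1 and Ugt2b34 were named after their values were seen. Ugt2b34 read 11.03, 11.06 and 10.98 in KO, against 11.69, 11.75 and 11.62 in WT, and was called without each array. The other 4 were absent in 3 to 6 of the 6 fits that left out 1 array: Gstt1 without any of the 6, Gstm7 and Ugt2b1 without KO 2, KO 3, WT 1, WT 2 or WT 3, and Gstk1 without KO 2, WT 2 or WT 3 (adjusted p up to 0.128). A second probe set of Gstm7 differed by 0.13. Of 13 carboxylesterases and paraoxonases, Ces2a and Ces2g rose and Ces1g fell. Ces2g read 8.38, 7.78 and 8.07 in KO, against 6.40, 7.10 and 7.33 in WT (1.14 ± 0.22, adjusted p = 0.0316). Ces1g read 5.78, 5 and 5.62 in KO, against 7.10, 7.14 and 7.98 in WT (-1.94 ± 0.35, adjusted p = 0.023). The Ces2g call was absent without KO 1, KO 3, WT 1 or WT 2, and that of Ces1g without KO 2, KO 3, WT 2 or WT 3 (adjusted p up to 0.079 and 0.0791). None of 13 steroid hormone enzymes was called, and 4 had an unadjusted p under 0.05.

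Of 26 genes of lipogenesis, elongation and desaturation, 1 rose (Scd2) and 3 fell (Elovl3, Elovl2 and Me1), with a median of -0.07 that was -0.28 without WT 1 and 0.01 without WT 3. Elovl2, which elongates polyunsaturated fatty acids, read 9.75, 10.06 and 10.02 in KO, against 11.14, 10.79 and 10.76 in WT (-0.95 ± 0.12, SE, n = 3 per group, limma adjusted p = 0.0033). Me1, the malic enzyme that supplies NADPH, fell by 1.05 (adjusted p = 0.036), a call absent without any 1 of the 6 arrays (adjusted p up to 0.133). The main lipogenic genes were not called: Srebf1 at -0.56 ± 0.22, Fasn at -0.25 ± 0.30 and Scd1 at 0.15 ± 0.35, with Scd1 at 12.69, 12.70 and 13.05 in KO, against 12.16, 13.05 and 12.78 in WT. The desaturase gene Fads2 differed by -1.03 (adjusted p = 0.0612). Of 19 cholesterol synthesis genes 0 were called and 0 had an unadjusted p under 0.05. Their median deviation from the WT mean was -0.41, 0.52 and 0.30 on the KO arrays, and -0.64, 0.29 and 0.37 on the WT arrays. The list's median of 0.14 was -0.17 without WT 1 and 0.42 without KO 1, so that its sign rests on single arrays. Of 30 genes of triglycerides and lipid droplets 3 fell and 0 rose, with 23 negative changes (median -0.20, and -0.06 without KO 1). These were Hsd17b11, the droplet budding gene Fitm1 (-0.98 ± 0.11, adjusted p = 0.00121) and Abhd5, the activator of adipose triglyceride lipase (-0.64 ± 0.12, adjusted p = 0.0318). Fitm1 read 6.83, 7.00 and 7.07 in KO, against 7.77, 8.02 and 8.05 in WT. The Abhd5 call was absent without KO 1, KO 2, WT 1 or WT 2 (adjusted p up to 0.0931). The fatty acid binding protein gene Fabp5 read 10.87, 11.64 and 11.08 in KO, against 9.99, 9.74 and 9.83 in WT, and was not called (1.34 ± 0.37, adjusted p = 0.112).

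Bile acid synthesis had 1 called gene of 14. Cyp27a1, the sterol hydroxylase of the acidic pathway, read 11.35, 11.42 and 11.62 in KO, against 12.09, 12.10 and 11.88 in WT (-0.56 ± 0.12, SE, n = 3 per group, limma adjusted p = 0.0449). Its call was absent without any 1 of the 6 arrays (adjusted p up to 0.158). Cyp7a1, the rate-limiting enzyme, read 9.65, 10.34 and 10.35 in KO, against 8.99, 10.52 and 10.56 in WT (0.09 ± 0.44), and Cyp8b1 differed by 0.06 ± 0.43. The sign of both turned without WT 1. The list's median was -0.25, and -0.08 without KO 1. Of 18 transporters, Abcc3, an efflux pump of organic anions, read 7.51, 8.54 and 8.58 in KO, against 9.76, 9.73 and 9.66 in WT (-1.51 ± 0.27, adjusted p = 0.0237). Abcb4, which moves phosphatidylcholine into bile, fell by 0.70 ± 0.15 (adjusted p = 0.0471). The Abcc3 call was absent without any 1 of the WT arrays, and that of Abcb4 without any 1 of the 6 arrays (adjusted p up to 0.0849 and 0.174). The bile salt pump gene Abcb11 differed by -0.37 (adjusted p = 0.18), and the sterol exporter genes Abca1 and Abcg1 by 0.27 and 0.84, none of them called. Other probe sets of Abca1 differed by -0.05 and -0.1. Among 24 apolipoprotein and lipoprotein genes, Apoa4 alone was called. Apoa5 (-0.71 ± 0.16, adjusted p = 0.0542) and the lipoprotein receptor gene Scarb1 (-0.64 ± 0.16, adjusted p = 0.082) were not.

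In the growth hormone and insulin-like growth factor axis, Igfbp1 rose and Igfbp2 fell among 23 genes, while Igf1 itself differed by -0.27 ± 0.10 (limma adjusted p = 0.203, n = 3 per group). Other probe sets of Igf1 differed by -0.56 and -0.12. Socs3, a feedback inhibitor of cytokine signalling, read 10.36, 7.58 and 9.30 in KO, against 6.74, 7.98 and 6.97 in WT, and was not called (adjusted p = 0.174). Of 17 male-biased liver genes, Elovl3 was called, and of 17 female-biased genes none, with 3 at an unadjusted p under 0.05. Of 20 genes of glucose metabolism, the glycolytic regulator gene Pfkfb3 fell and Ugp2, which makes UDP-glucose for glycogen, rose. Pfkfb3 read 6.54, 6.36 and 6.16 in KO, against 7.66, 7.53 and 7.22 in WT (-1.12 ± 0.19, adjusted p = 0.0151), and a second probe set differed by -0.10. Ugp2 read 12.61, 12.27 and 12.60 in KO, against 11.84, 11.80 and 11.71 in WT (0.71 ± 0.15, adjusted p = 0.0377), with 4 other probe sets at 0.65 to 1.04. The Pfkfb3 call was absent without KO 3, WT 1 or WT 2, and that of Ugp2 without KO 1, KO 3, WT 1, WT 2 or WT 3 (adjusted p up to 0.0665 and 0.112). The glucose-6-phosphatase gene G6pc read 8.63, 7.11 and 8.41 in KO, against 10.75, 8.80 and 10.59 in WT (-2.00 ± 0.56, adjusted p = 0.119). Of 42 genes of amino acid breakdown and the urea cycle, 2 fell and 34 had a negative change (median -0.23). Prodh, the first enzyme of proline breakdown, read 9.54, 9.13 and 9.67 in KO, against 10.45, 10.86 and 10.48 in WT (-1.15 ± 0.15, adjusted p = 0.00336), and Slc25a15, the mitochondrial ornithine carrier, fell by 0.39, a call absent without any 1 of the 6 arrays (adjusted p up to 0.132). None of 20 clock genes was called, with 5 at an unadjusted p under 0.05.

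Among interferon-stimulated, antigen presentation and chemokine genes 5 rose and 0 fell, and the levels of the first 2 of these lists were highest on KO 2. Of 35 interferon-stimulated genes 4 rose and 0 fell, 32 had a positive change and the median was 0.60. Usp18, which removes the ubiquitin-like modifier ISG15, read 7.84, 8.79 and 8.01 in KO, against 5.82, 5.77 and 6.77 in WT (2.10 ± 0.33, SE, n = 3 per group, limma adjusted p = 0.0112). The guanylate-binding protein gene Gbp2 read 6.15, 8.13 and 6.79 in KO, against 4.59, 5.26 and 5.33 in WT (1.96 ± 0.39, adjusted p = 0.0338). Ifi27l2a (1.17) and the transcription factor gene Irf1 (0.89) also rose. For all 4 genes KO 2 was the highest array. Their calls were absent without WT 1 or WT 2 for Usp18, and also without KO 3 and WT 3 for Gbp2, Irf1 and Ifi27l2a, the last also without KO 2 (adjusted p up to 0.134). The list's median deviation from the WT mean was 0.16, 1.21 and 0.64 on KO 1, KO 2 and KO 3, and -0.21 to 0.22 on the WT arrays. Of 14 antigen presentation genes 0 were called in limma and 6 had an unadjusted p under 0.05. Their median was 0.93, and the deviations were -0.21, 2.06 and 0.91 on the KO arrays and -0.09 to 0.18 on the WT arrays. The class II gene H2-Aa read 7.95, 11.25 and 9.5 in KO, against 7.41, 7.41 and 7.99 in WT (1.97 ± 0.64, adjusted p = 0.162). Of 24 chemokine genes Ccl9 rose (0.90 ± 0.19, adjusted p = 0.0451, up to 0.169 without KO 2, KO 3, WT 1, WT 2 or WT 3). Cxcl9, an interferon-induced chemokine, read 7.19, 10.36 and 8.33 in KO, against 6.41, 6.32 and 7.15 in WT and was not called (adjusted p = 0.128).

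All 20 measured markers of Kupffer cells and macrophages had a positive change, of 0.40 to 1.90 with a median of 1.19, 18 had an unadjusted p under 0.05, and 0 were called. Of these, Cd5l and Clec4f were singled out after their values were seen. Cd5l, secreted by tissue macrophages, read 9.20, 11.89 and 10.75 in KO, against 8.53, 8.73 and 8.88 in WT (limma adjusted p = 0.0954, n = 3 per group). The Kupffer cell receptor gene Clec4f read 7.88, 9.99 and 8.90 in KO, against 7.89, 7.77 and 7.77 in WT, so that KO 1 lay among the WT arrays. The summed intensity of the 20 markers was 3840, 17900 and 7490 on KO 1, KO 2 and KO 3, and 2870 to 3650 on the WT arrays, with none of the 20 below the floor. In bulk tissue, more cells of a type and more RNA per cell cannot be told apart. The part of these cells in the changes of the immune genes was not tested. As median deviations from the WT mean, macrophage markers lay at 0.28, 2.21 and 1.04 on KO 1, KO 2 and KO 3. Interferon-stimulated genes lay at 0.16, 1.21 and 0.64 on the same arrays. On WT_RA 1, WT_RA 2 and WT_RA 3, macrophage markers lay at 0.54, 0.54 and 1.24. Interferon-stimulated genes lay there at -0.07, 0.10 and 0.14. On KO_RA 1, KO_RA 2 and KO_RA 3, macrophage markers lay at 0.46, 0.46 and 0.60, and interferon-stimulated genes at 0.12, -0.11 and 0.25. Without KO 1 and WT_RA 3, an alternative chosen after seeing the data for these lists, 17 of the 20 macrophage markers, 14 of the 35 interferon-stimulated genes and 8 of the 14 antigen presentation genes were called higher. That fit called 165 of all 12393 genes higher. KO 1, which it leaves out, was the lowest KO array for these lists. Without KO 2 the medians of the 3 lists were 0.60, 0.31 and 0.32, and without KO 1 they were 1.64, 1.04 and 1.5. Endothelial markers were 22, of which Dnase1l3, a secreted nuclease, rose (0.88 ± 0.15, adjusted p = 0.0179, up to 0.07 without WT 1 or WT 2), with a median of 0.26. Their summed intensity was 4540 to 5290 in KO and 3690 to 4260 in WT. The medians were 0.23 for 26 stellate cell and matrix markers, 0.17 for 13 neutrophil and monocyte markers, 0.21 for 12 T and NK cell markers, 0.19 for 5 B cell markers, 0.07 for 8 cholangiocyte markers and 0.18 for 6 erythroid markers, and none of these was called. The defining markers Lrat of stellate cells, Cftr of cholangiocytes, Chil3, Cd3g, Cd8b1 and Hba-a1 were at the floor, below the lower quartiles on all 6 arrays. The medians were -0.07 for 18 pericentral hepatocyte markers, of which Cyp27a1 fell, and -0.14 for 11 periportal markers, of which Apoa4 rose.

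**Figure D4:**
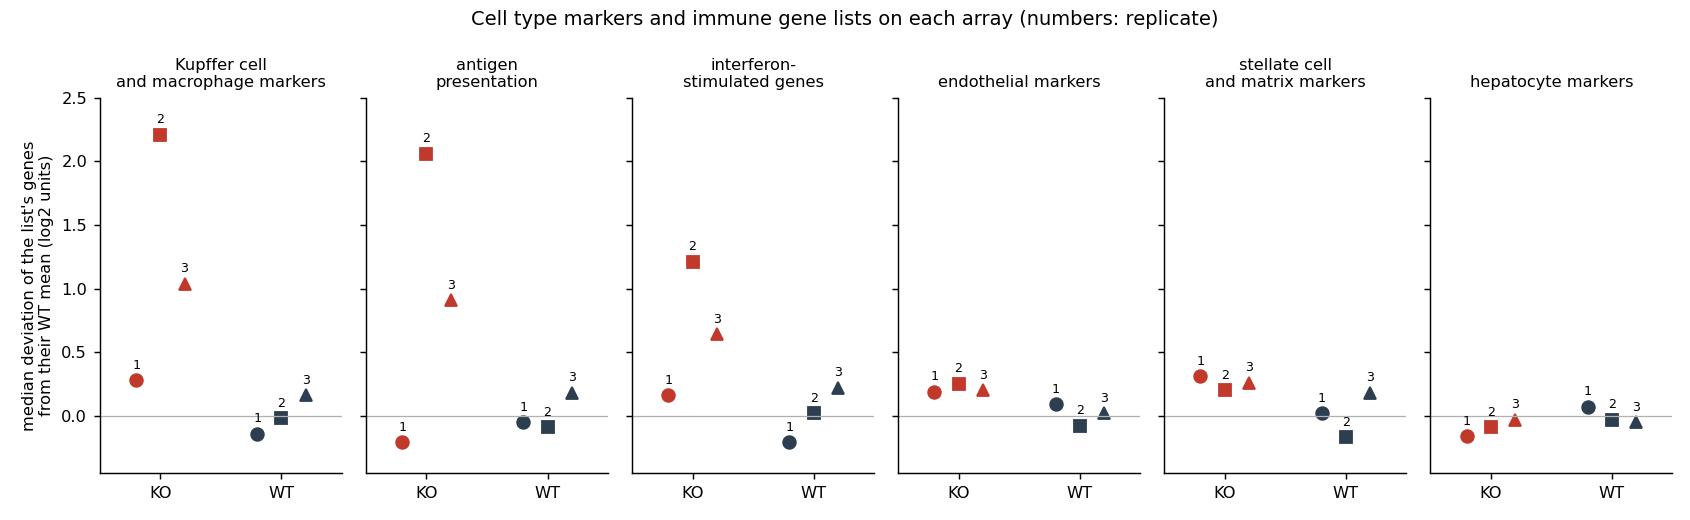
Median deviation of each list's genes from their WT mean (log2 units) on the 3 KO arrays (left in each panel) and the 3 WT arrays, labelled by replicate number. Macrophage markers lay at 0.28, 2.21 and 1.04 on KO 1, KO 2 and KO 3, and hepatocyte markers between -0.16 and 0.07 on all 6 arrays.

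Of 27 acute phase genes and 33 complement and coagulation genes, limma called 0 of each, with medians of 0.01 (-0.05 without KO 2) and -0.07 and with 4 and 10 genes at an unadjusted p under 0.05. Of 36 cell cycle genes, 32 had a positive change (median 0.24, and 0.13 without KO 2) and 8 lay below the lower quartiles on all 6 arrays, although the only one called, the kinase subunit gene Cks2, fell. Cks2 read 7.95, 7.62 and 7.59 in KO, against 8.46, 8.84 and 8.86 in WT (-1 ± 0.17, SE, n = 3 per group, adjusted p = 0.0156, up to 0.0732 without KO 2, KO 3, WT 2 or WT 3). Of 28 genes of the unfolded protein and integrated stress responses, Asns rose alone, and the list's median of -0.12 was -0.28 without KO 2 and 0.03 without KO 1. The pseudokinase gene Trib3, another amino acid response gene, differed by -0.82, and was not called (adjusted p = 0.186). Of 18 NRF2 targets, Me1 and Abcc3 fell and none rose. Of 21 iron and heme genes, the heme synthesis gene Alad fell, with 9.78, 9.75 and 10.05 in KO, against 10.76, 11.26 and 11.05 in WT (-1.17 ± 0.21, adjusted p = 0.0268, up to 0.101 without KO 2, WT 2 or WT 3). Of 11 heat shock genes 0 were called and 1 had an unadjusted p under 0.05. Aqp4 was the only one of 6 water channel genes to be called, with the other changes at -0.05 to 0.32.

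The genotype contrast on the RA diet (KO_RA minus WT_RA) used 6 other arrays, which share the estimate of the spread but no sample with the normal diet. It called 490 genes (3.95%), of which 115 were higher (0.928%) and 375 lower (3.03%). Of the 163 genes, 136 (83.4%) changed in the same direction under RA, against 60.5% of all genes, and 84 were also called there, which is 51.5% of the calls on the normal diet and 17.1% of those under RA. The direction was shared by 83 of these 84. Of the 103 genes that fell, 90 had a lower value under RA too and 61 were called lower. Of the 60 that rose, 46 had a higher value and 22 were called higher. The median change of the genes that rose was 0.802 on the normal diet and 0.434 under RA, and that of the genes that fell was -0.774 and -0.619. Of the 40 genes held without each array, 37 had the same sign under RA and 30 were called. Without KO 1 the shared direction was lower, at 62.2% of the 217 genes called. This is near the 60.5% of all genes in the fit of all arrays.

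Igfbp2 (-3.14 and -2.87 on the normal and RA diets), Acaa1b (-2.56 and -3.28), Cyp2c29 (-2.09 and -2.75), Scd2 (3.27 and 2.54), Sult1e1 (3.77 and 3.46) and Evc (1.23 and 1.15) were called on both diets. Aqp4 differed by 2.78 and 4.73. In contrast, the changes of the 4 interferon-stimulated genes were not called under RA, at 0.70 for Usp18, -0.21 for Gbp2, -0.05 for Ifi27l2a and -0.07 for Irf1, and the median of the macrophage markers was -0.18 there. Igfbp1 (2.06 and 0.48), Asns (2.10 and 0.90), Elovl3 (-2.83 and -1.17) and Aox3 (-1.22 and -0.24) were also called on the normal diet alone. The difference between diets was tested by the interaction term in limma, and none of the genes just named passed (adjusted p from 0.0777 for Aqp4 upward). That term called 1 of 12393 genes (0.00807%), while 1446 had an unadjusted p under 0.05. The 1 gene among the 84 that turned, Rpgrip1, a gene of photoreceptor cilia that was singled out after its values were seen, read 7.43, 6.36 and 6.23 in KO, against 9.40, 8.99 and 8.98 in WT (-2.45 ± 0.50, adjusted p = 0.0393). Under RA it read 9.08, 9.14 and 8.84 in KO_RA, against 8.35, 5.78 and 6.58 in WT_RA (2.12 ± 0.50, adjusted p = 0.0378). The interaction for Rpgrip1 did not pass (adjusted p = 0.0611), and its call on the normal diet was absent without KO 2, KO 3, WT 1, WT 2 or WT 3 (adjusted p up to 0.149).

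**Figure D5:**
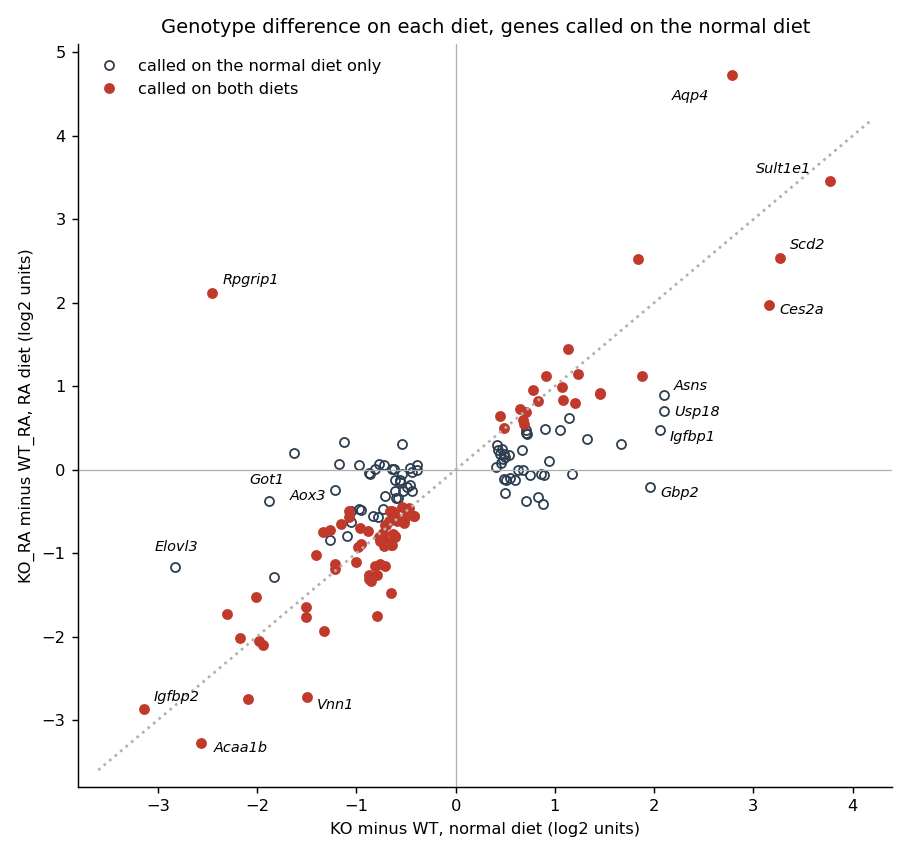
Genotype difference on the normal diet (horizontal axis) and on the RA diet (vertical axis), both in log2 units, for the 163 genes called on the normal diet, with filled points for the 84 called on both. Most points share a sign (136 of 163), Rpgrip1 lies in the upper left at -2.45 and 2.12, and the dotted line marks equal differences.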

How the data were processed

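Liver RNA of 12 mice, 1 Affymetrix mouse genome array each, was measured in 4 groups of 3 (KO, WT, KO_RA and WT_RA). The authors deposited log2 values per probe set, and the submitters' processing notes name RMA and Partek 6.11. The methods name MAS5 for the study's own analysis. RMA equalizes the arrays' distributions, which hides any shift of all genes. Scanner files were not used here.

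Of 22690 probe sets, 20380 carried 1 gene symbol, and 12393 genes were tested. No dim probe set was left out. A limma 3.58.1 model (R 4.3.3) with 1 coefficient per group was fitted to the 12 arrays (8 residual degrees of freedom), with two-sided tests and Benjamini-Hochberg adjustment over all genes. The threshold for a call was an adjusted p of 0.05. Each error is the fit's standard error, and 3 arrays a group limit the precision. The fit was tested on simulated data. The labels call the samples biological replicates.

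Genes named were up to 12 largest rises and 12 largest falls among genes called with each array left out, up to 4 called and 2 uncalled members of each list, and 33 fixed genes, of which 5 are not reported here. The members and lists were chosen with earlier results of these data known. Alternatives comprised the 6 arrays alone, a replicate block, arrays left out, a further quantile normalization, a dim filter, another variance model and the mean of a gene's probe sets.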

Additional observations from a re-analysis of the deposited data

Results flagged for a closer look

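Obp2a, an odorant-binding protein gene, was the 1 gene whose genotype difference itself differed between the diets (2.39 ± 0.24, limma adjusted p = 0.00503). On the normal diet it read 4.77, 4.59 and 4.53 in KO, against 5.28, 5.07 and 5.59 in WT (-0.68, adjusted p = 0.082). Under RA it read 4.19, 4.36 and 4.28 in KO_RA, against 7.77, 7.16 and 7.12 in WT_RA (-3.08, adjusted p = 3.03e-06). The KO and KO_RA values lay below the lower quartiles of the arrays, so that the size of the difference is uncertain.

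Among 2246 probe sets with several gene symbols or none, which the gene comparison left out, 9 were called (0.401%), 5 higher and 4 lower in KO, with changes of -1.74 to 1.71. Of these, 5 carried several symbols and 4 none.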

How the results depend on the processing

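The count of 163 called genes (60 higher, 103 lower) was 70 (25 and 45) in a fit of the 6 arrays alone, 98 (34 and 64) with a replicate block, 266 (165 and 101) without KO 1 and WT_RA 3, and 51 to 217 (20 to 141 higher, 31 to 76 lower) with 1 array left out. The cause was not tested. Of the 163 genes, 61, 90 and 122 were called in the first 3 of these settings. Genes higher in KO made up 36.8% of the calls, but 62% without KO 1 and WT_RA 3 and 46.5% after further quantile normalization, which called 142. The replicate numbers did not pair the arrays. After each gene's group mean was subtracted, the correlations between same-numbered KO and WT arrays were -0.04, 0.05 and -0.23. The dim filter, the other variance model and the mean of probe sets gave 161, 163 and 159 calls. The share of the same sign under RA (83.4%) was 84.7% with the replicate block, and 62.2% to 92.2% with 1 array left out. The lowest of these, without KO 1, was near the 60.5% of all genes in the fit of all arrays. Over all settings, the 60 called genes named by rule kept their sign, with the call kept in 582 pairs of gene and setting and lost in 192. For these genes leaving out arrays could not turn the sign, since their KO and WT arrays did not overlap. Signs turned for genes with changes near 0. Without KO 1 and WT_RA 3, Rxra was 0.18, Nr1h3 0.10, Nr1h4 -0.05, Rara 0.05 and Fgf21 -0.05. After further quantile normalization, Rxra was 0.07, Rxrg -0.03, Nr1h3 0.07, Nr1i3 0.03 and Fgf21 -0.04, and with the mean of probe sets Cyp7a1 was -0.12. With 1 array left out, the ranges were -0.18 to 0.18 for Rxra, -0.05 to 0.14 for Rxrg, -0.11 to 0.10 for Nr1h3, -0.05 to 0.19 for Nr1h4, -0.08 to 0.05 for Nr1i2, -0.30 to 0.11 for Nr1i3, -0.14 to 0.12 for Rara, -0.42 to 0.36 for Cyp7a1, -0.12 to 0.16 for Cyp8b1, -0.14 to 0.43 for Cyp4a14, -0.08 to 0.11 for Fgf21 and -0.11 to 0.34 for Scd1. Values below the lower quartiles (4.87 to 5.02) are near background, and the group means of 5 called genes in KO and 5 in WT lay there.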
